A study of Mus musculus with 2 samples.

Results

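The 9 genes described here encode paired receptors of myeloid cells: Pilra, Pilrb1 and Pilrb2 (the PILR genes), Pirb, Sirpa, Cd300a, Cd300lb, Cd300ld and Cd300lf. They were chosen by gene symbol from a deposited comparison of 2 libraries that holds 16218 named genes, and all 9 have an entry there. The choice was made with their ratios in that comparison known, so the levels and ratios below are a description and carry no test. The TKO library came from bone marrow-derived macrophages of mice with deletions of 2 microRNA clusters (mir-106b~25-/- and mir-106a~363-/-) and with mir-17~92 flox/flox recombined by Lyz2-Cre, and the WT library from macrophages of mice that carry Lyz2-Cre alone. Strain C57BL/6J is given for both. Marrow cells of each genotype grew for 5 days in DMEM that held 10% FBS and 10% supernatant of L929 cells, which supplies macrophage colony-stimulating factor, and received 10 ng/ml of lipopolysaccharide (LPS) for 3 h before polyadenylated RNA was taken. Lyz2-Cre acts in myeloid cells, so mir-17~92 is lost only where the Cre has acted, whereas the other clusters are deleted in every cell. The age, sex and number of the mice are not given in the sources used here.

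Paired receptors are sets of cell surface proteins with similar outer domains and opposite signals. The inhibitory partner carries tyrosine motifs called ITIMs in its cytoplasmic tail, which recruit the phosphatases SHP-1 and SHP-2. The activating partner has a short tail and signals through an adaptor with an ITAM motif, such as DAP12 (gene Tyrobp) or the Fc receptor gamma chain (gene Fcer1g), and from there through Src family kinases and Syk. On macrophages such receptors set thresholds for phagocytosis and cytokine release.

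With 1 library per genotype, no difference below has a replicate check, and genotype cannot be told apart from other differences between the cultures. The libraries held 10836855 counts in TKO and 10764519 in WT. Ratios are counts per 1000000 library counts (CPM) in TKO over CPM in WT, each followed by its 95% counting interval, which covers counting error only. A gene was taken as measured at a mean of at least 1 CPM, which 11662 genes reached. Markers of macrophages fit the labelled cell type: all 8 were measured, 0 were 1.5-fold apart, and they summed to 79745 counts in TKO and 77194 in WT. In bulk RNA, fewer cells of a type and less RNA per cell cannot be told apart. Fibroblast and stromal markers stood apart, with 4 of 5 measured lower in TKO (1567 counts summed over the 6 listed genes in TKO, 3969 in WT). Their part in the receptor values was not tested. Although C57BL/6J is given for both libraries, H2-L, a class I gene that mice of the H2b haplotype of this strain are known to lack, had 7378 counts in TKO and 15 in WT. It was chosen after its value was seen, and the part of a strain difference in the values below was not tested.

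All 9 receptor genes had higher values in the TKO library than in the WT library, by amounts that ran from 1.19-fold for Sirpa to 3.09-fold for Pilrb1. The counting interval lay above equality for 9 of 9, as it did for 14.1% of all measured genes. A gene was called apart at 1.5-fold when its log2(CPM + 0.5) ratio reached that size and its interval excluded equality. The 3 PILR genes and Cd300lf were called higher by this rule and 0 of the 9 lower, beside 2.83% of measured genes higher and 5.26% lower. At 2-fold the PILR genes alone were called, beside 1.02% of measured genes higher and 1.68% lower. The median log2 ratio of the 9 was 0.40, and that of all measured genes −0.04, with a standard deviation of 0.43 over genes. In the authors' deposited table, 9 of the 9 were higher at an adjusted value of at most 0.05, beside 7.71% of all entries. At a mean of at least 10 CPM, which Pilrb1 and Pilrb2 do not reach, 2 of the 9 were called higher at 1.5-fold. The shares at 1.5-fold and 2-fold above are for a mean of at least 1 CPM. These shares are background only, since the genes were picked on this comparison.

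**Figure D1:**
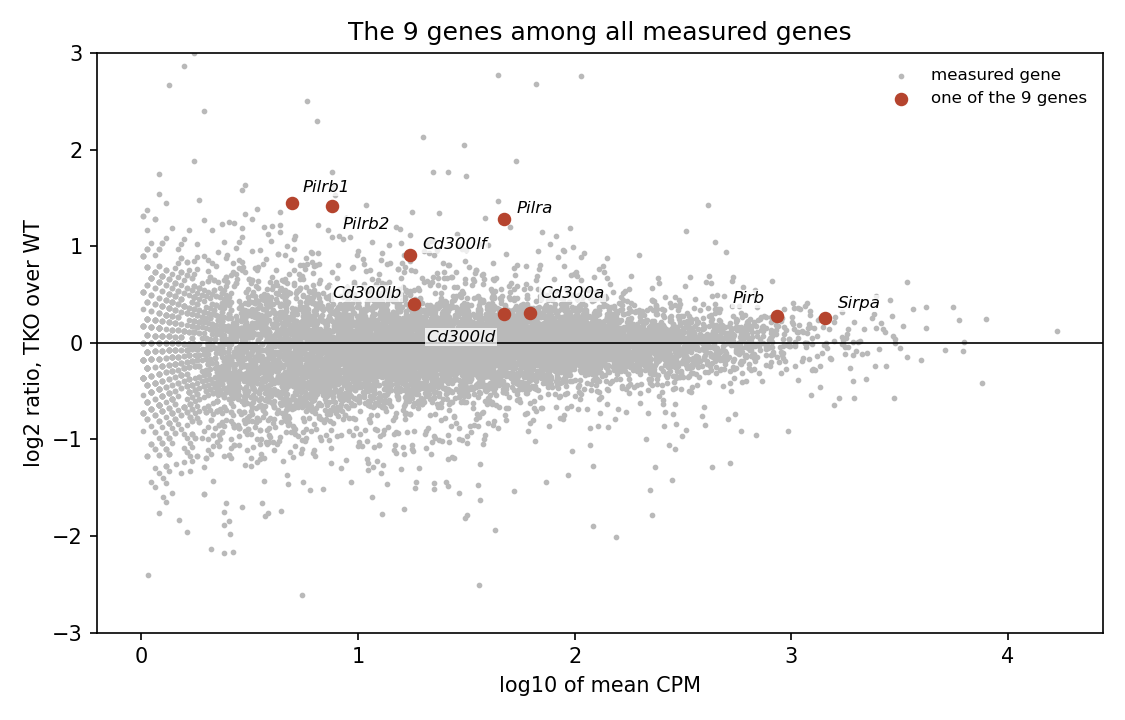
Each grey point is 1 of 11662 measured genes, placed by the log10 of its mean CPM over both libraries (x axis) and its log2 ratio of TKO over WT (y axis), and 19 genes lie outside the y axis. The PILR genes and Cd300lf sit near the upper edge of the cloud, with log2 ratios of 0.90 to 1.45, while the other 5 genes lie within it at 0.25 to 0.40.

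The PILR genes stand next to each other on the minus strand of chromosome 5, near mir-106b~25. Pilra encodes the inhibitory receptor PILRα, whose tail carries ITIMs, and Pilrb1 and Pilrb2 encode PILRβ receptors, of which PILRβ1 is known to pair with DAP12. Their promoters are shown first because they are nearly the same in sequence. The transcripts are less alike. Over the 1805 bases of its 2578 that align, Pilra was 72.2% identical to Pilrb1, and over 1804 bases 72.5% to Pilrb2. Pilrb1 and Pilrb2 were 95.8% identical over 1807 bases. Each promoter runs from 250 bases before to 50 bases after a RefSeq start of the gene (GRCm38.p6) and is printed 5′ to 3′ in its direction. The start used for Pilrb1 lies inside its gene span, which ends at 137858425, so its positions are counted from an internal start. Capitals mark matches to 2 motifs, the interferon-response type GAAANNGAAA (N is any base) and the C/EBP type TTGCNNAA, both searched on both strands.
Pilra promoter, chr5:137836229-137836528, minus strand: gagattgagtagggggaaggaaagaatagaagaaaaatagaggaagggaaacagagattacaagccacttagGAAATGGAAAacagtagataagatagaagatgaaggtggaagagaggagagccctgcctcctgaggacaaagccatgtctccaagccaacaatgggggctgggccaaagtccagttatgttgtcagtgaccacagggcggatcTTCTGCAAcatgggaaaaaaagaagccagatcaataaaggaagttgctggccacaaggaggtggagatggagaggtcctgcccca
Pilrb1 promoter, chr5:137858000-137858299, minus strand: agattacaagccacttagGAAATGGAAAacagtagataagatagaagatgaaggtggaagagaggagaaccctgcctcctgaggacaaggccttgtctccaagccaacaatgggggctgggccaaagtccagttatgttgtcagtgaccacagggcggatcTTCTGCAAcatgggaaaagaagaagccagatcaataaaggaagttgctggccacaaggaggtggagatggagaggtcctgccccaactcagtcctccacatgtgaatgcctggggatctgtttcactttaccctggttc
Pilrb2 promoter, chr5:137871709-137872008, minus strand: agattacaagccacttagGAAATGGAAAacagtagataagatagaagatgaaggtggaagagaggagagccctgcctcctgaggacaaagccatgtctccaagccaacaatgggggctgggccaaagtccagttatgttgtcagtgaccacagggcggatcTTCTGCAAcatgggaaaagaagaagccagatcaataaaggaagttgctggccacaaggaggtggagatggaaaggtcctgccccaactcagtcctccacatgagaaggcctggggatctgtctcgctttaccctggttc

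Over the bases that align, the Pilra promoter was 98.4% identical to that of Pilrb1 and 99.2% to that of Pilrb2 (246 bases each). Those of Pilrb1 and Pilrb2 were 97.3% identical over 300 bases, so the 3 sequences are copies of each other and not independent cases. The interferon-response type match, GAAATGGAAA, begins at −178 from the start in Pilra and at −232 in Pilrb1 and Pilrb2. The C/EBP type match, TTCTGCAA, lies at −35 in Pilra and at −89 in the other copies. RefSeq promoters were found for 8 of the 9 genes, all but Sirpa. As for Pilrb1, the starts used for Cd300a and Cd300lf lie inside their gene spans. The interferon-response type was present in the 3 PILR promoters and 0 of the other 5, beside 3.44% of 32851 promoters. The C/EBP type was present in the PILR promoters and that of Cd300a, beside 10.8%. The PU.1 type GAGGAA was present in 5 of the 8 (Pilra, Pirb, Cd300a, Cd300ld and Cd300lf), beside 28.3%. The AP-1 type TGANTCA was in 0 of the 8, beside 7.81%, and the NF-κB type GGGANNTTCC was in that of Cd300ld, where it overlaps the PU.1 match, beside 1.47%. A match is a run of letters and does not show that a factor binds.

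Pilra (gene 231805, chr5:137821952-137836278) had 727 counts in TKO and 294 in WT, with exact Poisson intervals of 675 to 782 in TKO and 261 to 330 in WT. Its level per length was 25.9 FPKM in TKO and 10.5 FPKM in WT, and its ratio was 2.46 (2.14 to 2.82). Pilrb1 (gene 170741, chr5:137852141-137858425) had 81 counts in TKO and 26 in WT, 7.48 FPKM in TKO and 2.38 FPKM in WT, with a ratio of 3.09 (1.97 to 5.02). Pilrb2 (gene 545812, chr5:137865821-137871758) had 122 counts in TKO and 42 in WT, 6.27 FPKM in TKO and 2.19 FPKM in WT, with a ratio of 2.89 (2.02 to 4.2). The intervals of the 3 ratios overlap, so that the inhibitory and the activating genes differed between libraries by amounts that counting error does not separate. By log2 ratio Pilrb1 ranked 45, Pilrb2 49 and Pilra 64 among the measured genes.

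Reads of Pilrb1 and Pilrb2, the closest copies, can be divided between them by the counting, so sums are given as well. The PILR genes together had 930 counts in TKO and 362 in WT, a ratio of 2.55 (2.26 to 2.89), and the activating Pilrb1 and Pilrb2 together had 203 counts in TKO and 68 in WT, a ratio of 2.97 (2.24 to 3.96). Pilra took 78.2% of the PILR counts in TKO (75.4 to 80.8, exact binomial) and 81.2% in WT (76.8 to 85.1), shares whose intervals overlap. Of the 50-base stretches of its GENCODE transcript, Pilrb1 shares 31.2% with other genes and Pilrb2 29.9%, mostly with each other, while Pilra shares 7.28%. The last 670 bases of the Pilra span also overlap Zcwpw1, a gene on the opposite strand that had 128 counts in TKO and 80 in WT, and without a stated strand setting their reads cannot be told apart.

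**Figure D2:**
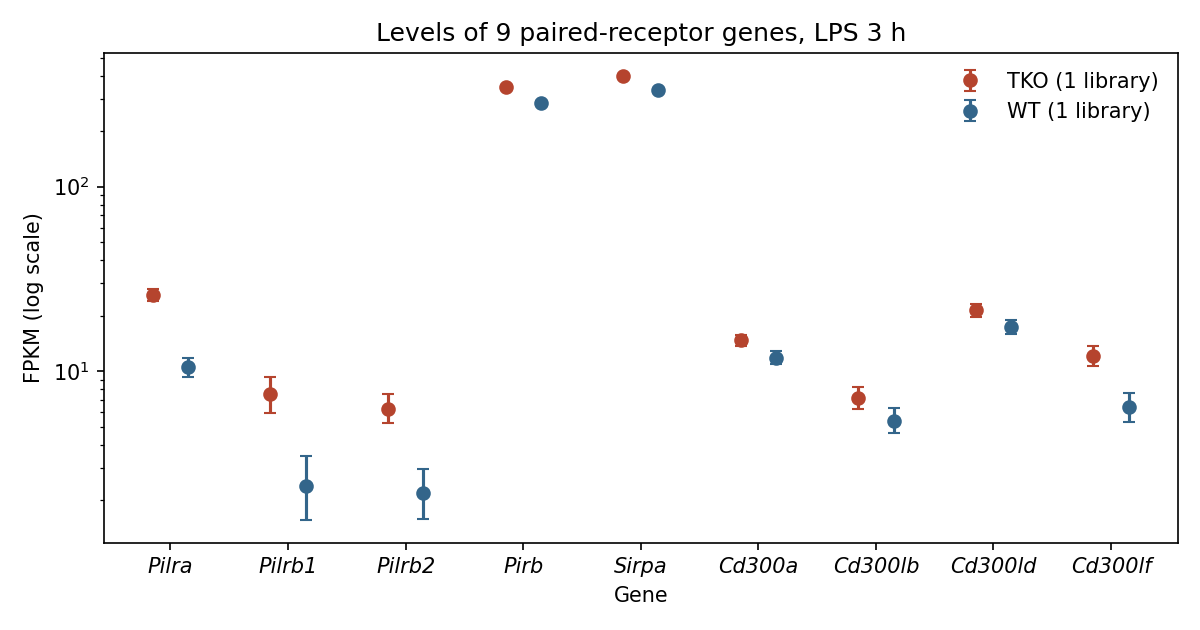
FPKM of each gene on a log axis, with TKO in red and WT in blue (1 library each) and bars for the 95% Poisson counting interval of the count behind each value. Pilra ranked 3 among the genes in TKO and 5 in WT, and Sirpa and Pirb lay far above the others in both libraries.

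By level per length the 9 genes fell into 2 ranges. Sirpa and Pirb were at 396 and 345 FPKM in TKO and at 333 and 284 FPKM in WT, above at least 97.8% of measured genes in either library. The remaining genes lay between 6.27 and 25.9 FPKM in TKO and between 2.19 and 17.4 FPKM in WT. In TKO the order below Pirb was Pilra, Cd300ld, Cd300a, Cd300lf, Pilrb1, Cd300lb and Pilrb2. In WT it was Cd300ld, Cd300a, Pilra, Cd300lf, Cd300lb, Pilrb1 and Pilrb2. Neighbours with overlapping counting intervals were Cd300a and Cd300lf, Pilrb1 and Cd300lb, and Cd300lb and Pilrb2 in TKO. In WT they were Cd300a and Pilra, Cd300lf and Cd300lb, and Pilrb1 and Pilrb2.

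The PILR genes were set against their chromosomal surroundings because mir-106b~25 (chr5:138165321-138165818) is deleted in TKO. They lay at −329 kb (Pilra), −307 kb (Pilrb1) and −294 kb (Pilrb2) from the cluster, the minus sign marking lower coordinates. Of 37 measured genes within 1 Mb, 6 were called higher at 1.5-fold and 4 lower, with a median log2 ratio of −0.00, whose sign is not read. Without the PILR genes, 3 of 34 were higher by that rule and 4 lower, and 0 were higher at 2-fold. The 3 were the zinc finger gene Zfp113 at −9.58 kb (298 counts in TKO, 183 in WT, ratio 1.62, 1.34 to 1.96), Zcwpw1 and Fam20c. Fam20c, which encodes a kinase of secreted proteins, had 7019 counts in TKO and 4482 in WT (ratio 1.56, 1.5 to 1.62).

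The 4 lower genes were Pcolce (16 counts in TKO, 62 in WT), Pdgfa (76 in TKO, 218 in WT), Slc12a9 (91 in TKO, 174 in WT) and Nxpe5 (47 in TKO, 74 in WT). With TMM or median-of-ratios scaling, a pseudocount of 1 CPM or FPKM, 3 genes were called lower, and Nxpe5, at a log2 ratio of −0.61, lay nearest the threshold. Genes between the PILR genes and the cluster did not share one direction. Besides Zfp113, given above, Zscan21 had 188 counts in TKO and 170 in WT (ratio 1.10, 0.888 to 1.36). Cops6 had 463 counts in TKO and 556 in WT (ratio 0.827, 0.730 to 0.937). The nearest to Pilrb2, Gjc3, had 84 counts in TKO and 83 in WT (ratio 1.01, 0.733 to 1.38), and Zkscan1 had 208 in TKO and 203 in WT. Mcm7, the replication helicase gene that holds the cluster, had 496 counts in TKO and 608 in WT (ratio 0.810, 0.718 to 0.914). Gjc3, Zkscan1, Zscan21 and Cops6 were picked with their values in view.

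**Figure D3:**
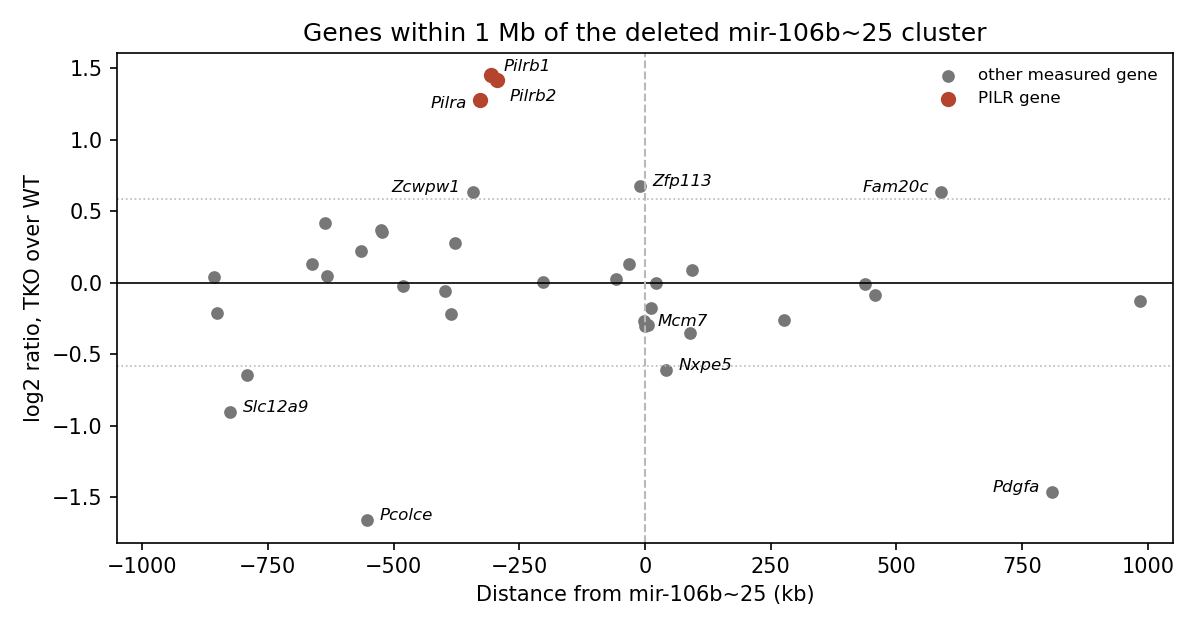
Log2 ratio of TKO over WT (y axis) for the 37 measured genes within 1 Mb of mir-106b~25, by distance from the cluster in kb (x axis), with dotted lines at 1.5-fold. The PILR genes, in red, lie at 1.28 to 1.45, above every other gene of the window, of which the highest is Zfp113 at 0.68.

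Pirb (gene 18733, chr7:3712505-3720382) encodes PIR-B, an ITIM receptor that binds MHC class I molecules. It had 10225 counts in TKO and 8373 in WT, 345 FPKM in TKO and 284 FPKM in WT, and a ratio of 1.21 (1.18 to 1.25). Its activating relatives, the PIR-A genes, pair with the Fc receptor gamma chain and had larger ratios. Pira2 had 1266 counts in TKO and 643 in WT (ratio 1.96, 1.78 to 2.15), and Pira6 had 172 in TKO and 80 in WT (ratio 2.14, 1.63 to 2.82). Of 16 PIR and LILR names listed besides Pirb, 10 had an entry and 6 of these were measured. Of the 6, Pira2 and Pira6 were higher at 1.5-fold and 0 lower, and 4 were higher under TMM scaling. Pira4, Pira6, Pira7 and Pira11 were absent from the RefSeq annotation used here, so their place in the genome was not checked. Summed over 7 PIR-A genes (Pira1, Pira2, Pira4, Pira6, Pira7, Pira11 and Lilra6) there were 1704 counts in TKO and 870 in WT, a ratio of 1.95 (1.79 to 2.11). These 7 genes took 14.3% of the counts summed over them and Pirb in TKO (13.7 to 14.9, exact binomial) and 9.41% in WT (8.82 to 10.0), and these intervals do not overlap.

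Part of that split is uncertain, because 37.3% of the 50-base stretches of the Pirb transcript also occur in other genes, 21.7% in Gm14548 and 20.7% in Pira2. Gm14548, which lies among the PIR genes and was not summed with them, had 347 counts in TKO and 245 in WT (ratio 1.41, 1.19 to 1.66). Pira4 had 12 counts and Pira7 15 counts in TKO and both had 0 in WT, below the level at which a gene was taken as measured. The more distant inhibitory relative Lilrb4a was closer to Pirb, with 15629 counts in TKO and 13135 in WT (ratio 1.18, 1.15 to 1.21), and Lilr4b had 7290 in TKO and 6249 in WT (ratio 1.16, 1.12 to 1.2). Gm14548, Lilrb4a, Lilr4b, Pira4 and Pira7 were picked with their values in view.

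Sirpa (gene 19261, chr2:129591042-129632228) encodes SIRPα, the ITIM receptor for CD47 that restrains phagocytosis. It was the most abundant of the 9, with 16863 counts in TKO and 14068 in WT, 396 FPKM in TKO and 333 FPKM in WT, and had the smallest ratio, 1.19 (1.16 to 1.22). No 50-base stretch of the GENCODE transcript searched occurs in another gene, and its estimated count was whole in both libraries, as was that of Cd300lb. The SIRP-beta genes, which lack ITIMs, summed to 274 counts in TKO and 248 in WT (ratio 1.10, 0.921 to 1.31), and 0 of the 3 were 1.5-fold apart. Cd47 itself had 2888 counts in TKO and 2121 in WT (ratio 1.35, 1.28 to 1.43), so the ligand and the receptor were both higher in TKO, each by less than 1.5-fold.

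The CD300 genes of the set stand in 1 cluster on chromosome 11. Cd300lf (gene 246746, chr11:115116214-115135372) encodes CD300f, a mostly inhibitory receptor for phospholipids, and had 246 counts in TKO and 128 in WT. Its level was 12.1 FPKM in TKO and 6.38 FPKM in WT, and its ratio was 1.91 (1.54 to 2.38). It lies wholly within the span of Rab37, which had 13 counts in TKO and 4 in WT. The spans of Cd300lb and Pilrb1 also overlap those of Gm11699 and Gm36551, whose counts were not used here.

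The other CD300 genes of the set differed less. Cd300a (gene 217303, chr11:114889152-114901946), an ITIM receptor for phosphatidylserine and phosphatidylethanolamine, had 745 counts in TKO and 596 in WT, 14.7 FPKM in TKO and 11.8 FPKM in WT (ratio 1.24, 1.11 to 1.39). Cd300lb (gene 217304, chr11:114922779-114934371), an activating receptor that pairs with DAP12, had 225 counts in TKO and 168 in WT, 7.18 FPKM in TKO and 5.40 FPKM in WT (ratio 1.33, 1.08 to 1.63). Cd300ld (gene 217305, chr11:114982443-114989886), which signals through the Fc receptor gamma chain, had 565 counts in TKO and 457 in WT, 21.3 FPKM in TKO and 17.4 FPKM in WT (ratio 1.23, 1.08 to 1.39). The intervals of these 3 ratios overlap each other, and that of Cd300lb also overlaps the interval of Cd300lf. Cd300lf took 13.8% of the counts of the 4 genes in TKO (12.2 to 15.5) and 9.49% in WT (7.98 to 11.2).

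Of 9 CD300 names listed outside the set, 5 had an entry and 4 had none. The 5 genes, all measured, had no call at 1.5-fold (1 higher under TMM scaling) and a median log2 ratio of 0.09. Cd300lh came closest, with 675 counts in TKO and 453 in WT (ratio 1.48, 1.31 to 1.67). AF251705, named Cd300c2 in RefSeq, had 828 counts in TKO and 775 in WT (ratio 1.06, 0.961 to 1.17), and Gm11711, named Cd300ld5, had 203 in TKO and 215 in WT (ratio 0.938, 0.770 to 1.14). Both lie between Cd300ld and Cd300lf on the chromosome and have intervals that include equality. All of these were picked with their values in view. The 4 CD300 genes of the set and the 5 outside it together summed to 3567 counts in TKO and 2858 in WT, a ratio of 1.24 (1.18 to 1.30).

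**Figure D4:**
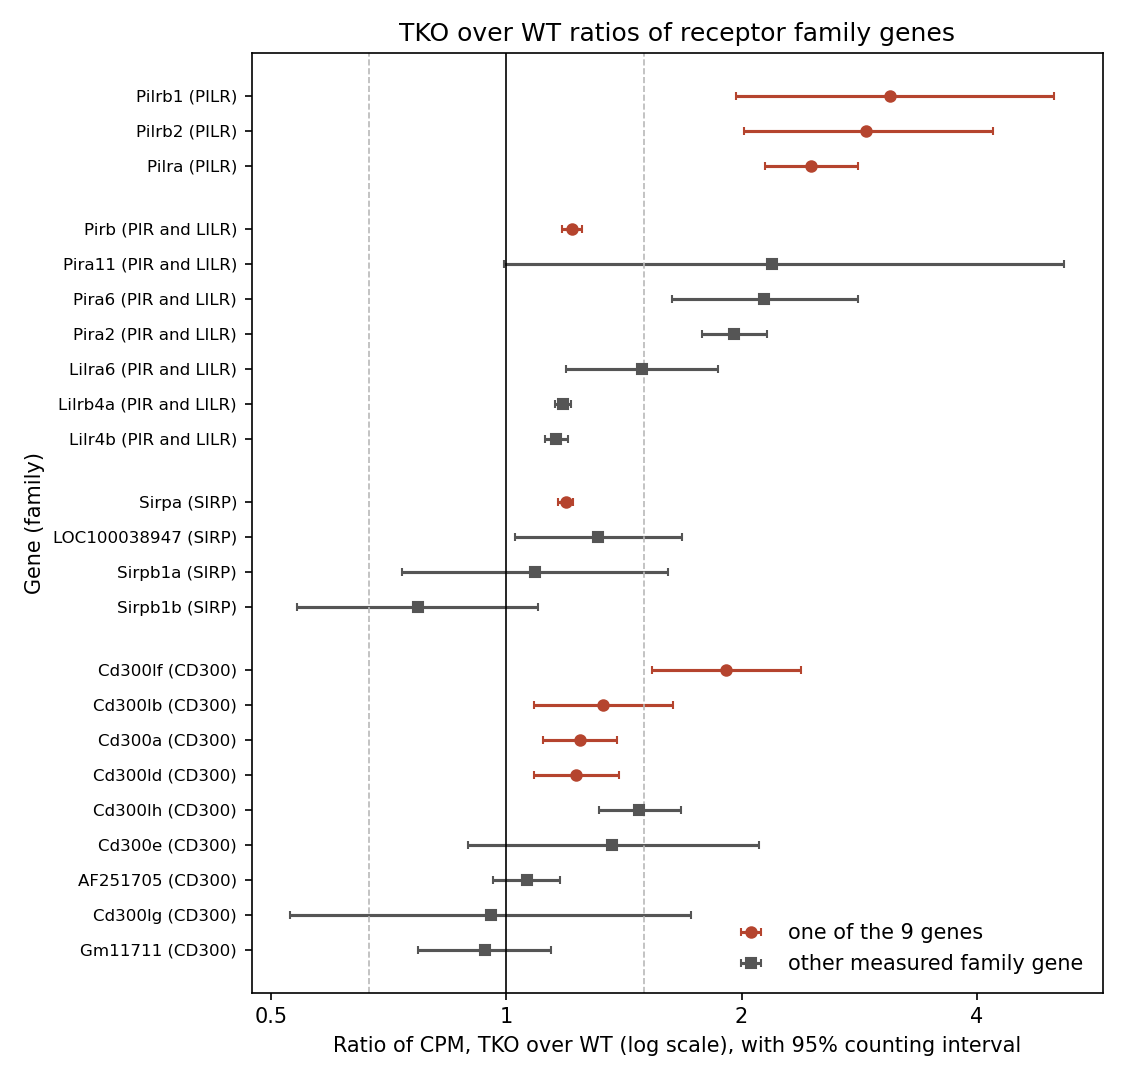
Ratio of CPM in TKO over WT on a log axis for the 9 genes (circles) and the other measured genes of their families (squares), with 95% counting intervals, a solid line at equality and dashed lines at 1.5-fold. The PILR genes, Cd300lf, Pira2 and Pira6 have intervals wholly to the right of 1.5-fold, while Pirb, Sirpa, Lilrb4a and Lilr4b lie between 1.16 and 1.21.

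The signalling partners of these receptors showed no common direction. Tyrobp, the DAP12 gene, had 3929 counts in TKO and 3749 in WT (ratio 1.04, 0.995 to 1.09), and Fcer1g had 6858 in TKO and 7757 in WT (ratio 0.878, 0.850 to 0.907). Of 8 ITAM adaptors and kinases, 1 was higher (2 under TMM scaling) and 1 lower at 1.5-fold. Lyn, the Src family kinase that phosphorylates ITIMs, had 4563 counts in TKO and 2820 in WT (ratio 1.61, 1.53 to 1.69), whereas Src had 1324 in TKO and 2113 in WT (ratio 0.622, 0.581 to 0.667). None of 8 phosphatases and related inhibitors was 1.5-fold apart in either direction. Ptpn6, the SHP-1 gene, had 3324 counts in TKO and 2990 in WT (ratio 1.10, 1.05 to 1.16), and Ptpn11, the SHP-2 gene, had 1529 in TKO and 1409 in WT (ratio 1.08, 1.00 to 1.16).

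Among 11 measured ligands and partners, 0 were higher at 1.5-fold and 1 was lower. That gene was Il4ra, the interleukin-4 receptor chain, to which CD300f is known to bind, with 1474 counts in TKO and 3577 in WT (ratio 0.409, 0.385 to 0.435). Cd99, which encodes a ligand of PILR proteins in mice, had 4352 counts in TKO and 3365 in WT (ratio 1.28, 1.23 to 1.34). Of the class I genes, whose products bind PIR-B, H2-K1 had 13609 counts in TKO and 12153 in WT (ratio 1.11, 1.09 to 1.14) and H2-D1 had 20964 in TKO and 22089 in WT (ratio 0.943, 0.925 to 0.961), whereas H2-L stood far apart, as given above. Of 10 other measured ITIM receptors of myeloid cells, 2 were higher and 0 lower. Siglece, a sialic acid receptor, had 145 counts in TKO and 72 in WT (ratio 2.00, 1.5 to 2.69), and Lair1, a collagen receptor, had 650 in TKO and 427 in WT (ratio 1.51, 1.34 to 1.71). The median log2 ratio of these 10 was 0.04, and 1 of them was called higher when a pseudocount of 1 CPM was added. Cd99, H2-K1, H2-D1 and Fcer1g were picked with their values in view.

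Because several of these receptors are also made by other leukocytes, the markers of such cells were read beside them. Neutrophil markers summed to 288 counts in TKO and 255 in WT, of which Cxcr2 alone gave 226 in TKO and 190 in WT. Ly6g had 1 count in TKO and 0 in WT. S100a9, with 8 counts in TKO and 21 in WT, was the single neutrophil gene called apart. Dendritic cell markers summed to 144 counts in TKO and 118 in WT, of which Xcr1 gave 90 in TKO and 84 in WT. T and NK cell markers, with an entry for 3 of 6 listed genes, summed to 66 in TKO and 89 in WT. Of these, Cd3d gave 48 in TKO and 53 in WT, and Lck was lower in TKO (10 counts, 32 in WT). Mast cell markers summed to 16 in TKO and 24 in WT, and B cell markers to 11 in TKO and 15 in WT. The part of such cells in the receptor values was not tested. Ly6g, Cxcr2, Xcr1 and Cd3d were picked with their values in view.

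The 3′ UTRs of the 9 genes were searched for matches to bases 2 to 8 of 13 mature microRNAs of the deleted clusters, which have 4 seeds. Only a single arm of each microRNA was used, and the opposite arms were not searched. A representative of each seed family is printed 5′ to 3′ from RefSeq with the seed in capitals.
miR-17-5p: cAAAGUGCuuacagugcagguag
miR-18a-5p: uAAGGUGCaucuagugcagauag
miR-19a-3p: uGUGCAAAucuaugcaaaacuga
miR-92a-3p: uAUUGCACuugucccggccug

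Of the 9 genes, 3 had a match in the longest 3′ UTR annotated in GENCODE M21, beside 36.0% of 11150 measured genes. Pilrb2 and Pirb had 1 match each to the miR-17 family, Cd300ld had 2 to the miR-18 family, and the other 6 genes had 0. Among measured genes, 15.5% had a match to the miR-17 family and 10.4% to the miR-18 family. With a 6-base match, 8 of the 9 genes had one, beside 70.5% of measured genes. The part of such matches in the ratios was not tested. The 4 matches to bases 2 to 8 are printed with the bases opposite the seed in capitals (GRCm38).
Pilrb2 3′ UTR, chr5:137865837-137865859, minus strand: agttattaGCACTTTcaataaat
Pirb 3′ UTR, chr7:3712569-3712591, minus strand: acgtgactGCACTTTaagtaaca
Cd300ld 3′ UTR, chr11:114984033-114984055, minus strand: gtgtgcatGCACCTTgccggggc
Cd300ld 3′ UTR, chr11:114983948-114983970, minus strand: attgaccaGCACCTTtgtgtggt

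The 3′ UTRs of Pilrb1 and Pilrb2 have 1024 bases each and are 97.3% identical. At the place of the Pilrb2 match Pilrb1 differs by 1 base, G9A. Positions are counted from 1 at the 5′ end of the window, with the base of Pilrb2 first. Pilrb1 has no match to the whole seed there, but keeps the other bases of the match, CACTTT, as a shorter match. The differing base is in capitals.
Pilrb1 3′ UTR, chr5:137852157-137852179, minus strand: agttattaAcactttcaataaat
The ratio of Pilrb2, which has the whole match, was 2.89 (2.02 to 4.2). That of Pilrb1, which keeps only the shorter match, was 3.09 (1.97 to 5.02). Counting error does not separate these values. With part of the reads shared between the copies, a difference between them would also be blurred by the counting. The part of the match in these ratios was not tested.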

How the data were processed

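Polyadenylated RNA was measured in 2 libraries, 1 TKO and 1 WT. The submitters' processing notes name RSEM 1.2.12, Bowtie2 2.2.5, HISAT2 2.0.4 and build mm10 but not the role of each. No strand setting or annotation is given in the sources used here. Per gene, the deposited estimated counts are fractional where reads were shared, and whole-number rounding was applied. FPKM (levels per length), a log2 ratio, a p-value and its adjusted form, handled as a score, were deposited by the authors, and the test behind these is not given in the sources used here. An entry with no symbol was left out.

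CPM is a rounded count divided by its library's total and multiplied by 1000000, and log2 ratios are of CPM + 0.5. Intervals at 95% are exact Clopper-Pearson (conditional binomial) for ratios and shares and exact Poisson for counts. Without molecular identifiers PCR copies are not independent, so intervals and floors (3 counts, 0.277 CPM in TKO and 0.279 CPM in WT) cover counting error only. No p-value was computed, since 1 library per genotype leaves no spread. The call rule was tested on simulated counts that held counting error only, so differences between cultures were not covered. The genes changed there had a mean of at least 10 CPM, which Pilrb1 and Pilrb2 do not reach. Their changes were larger than 2-fold, so calls near 1.5-fold were not tested.

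The members and gene lists were chosen with earlier results of these data known. Named were all members, from each list and from the genes within 1 Mb of mir-106b~25 those apart at 1.5-fold (at most 6 each), and Tyrobp, Ptpn6, Ptpn11, Cd47 and Mcm7. Other genes are named as picked with their values in view. Sequences came from RefSeq (GRCm38.p6 promoters and microRNAs) and GENCODE M21 transcripts, whose assembly is the one the notes call mm10, and were compared with Biopython 1.88. Alternatives used edgeR 4.0.16 and DESeq2 1.42.0 for scaling only, another pseudocount, another abundance filter, FPKM, other windows and other seed lengths. Protein sequences were not used here. Python 3.11.15, scipy 1.17.1 and R 4.3.3 were used.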

Additional observations from a re-analysis of the deposited data

How the results depend on the processing

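No paired analysis was possible because each genotype had 1 library and no comparison had a test. Of 186 alternative values for 38 results, 168 stayed close to the value reported, 18 moved and 0 were counted as reversed. The median log2 ratio of genes near mir-106b~25 went from −0.00 to 0.04 with TMM scaling and 0.03 with median-of-ratios scaling. Its sign is not read, and these values were counted as close. Across 5 alternatives each, the log2 ratio ran from 1.26 to 1.33 for Pilra, 1.31 to 1.59 for Pilrb1, 1.32 to 1.51 for Pilrb2 and 0.88 to 0.95 for Cd300lf. With TMM scaling Pirb was at 0.33, Sirpa at 0.30 and the ratio summed over the 9 genes at 1.27, and with median-of-ratios scaling Sirpa was at 0.29. These scalings moved the median of all genes by 0.05 and 0.03. At a mean of at least 10 CPM, 2 of the 9 were called higher, because Pilrb1 and Pilrb2 lie below that level. Under both scalings 4 PIR and LILR genes, 1 other CD300 gene and 2 ITAM genes were called higher, and without the abundance filter 5 PIR and LILR genes were. With a pseudocount of 1 CPM or with FPKM, 1 other ITIM receptor was. Within 0.5 Mb of mir-106b~25, 1 gene was called lower, and within 2 Mb, 7 were. With a 6-base match 8 of the 9 genes had a seed match, beside 70.5% of measured genes. Where the filter, the window or the length of the match does not set the count, the cause was not tested. Low counts widen the intervals of the Pilrb1 and Pilrb2 ratios.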
